A study of Mus musculus with 15 samples.

Results

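Skeletal muscle RNA in mouse skin was followed over 5 times of a wounding course through 32 genes that code for the contractile, calcium-handling and energy proteins of muscle fibres. The genes were taken by symbol from a fixed list, and all 32 were found among the 30281 named genes of the deposited files. All 32 also passed the filter on low counts, which left 17136 genes for testing. The skin came from C57BL/6 mice at day 0, 1, 3, 5 and 7, with 3 libraries per time and 15 in all. Every library carries the wound label, day 0 included, and the label gives no other treatment, genotype or age. Muscle and fat were removed from the skin before freezing, per the labels' protocols. Whether the 3 libraries of a time stem from different animals is not stated, so the tests below see only the spread among these libraries, which may be technical.

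Skeletal muscle contracts when myosin of the thick filament pulls on actin of the thin filament inside the sarcomere, whose ends are the Z-discs. Calcium released from the sarcoplasmic reticulum starts each contraction by binding troponin on the thin filament, and creatine kinase and glycolytic enzymes renew the ATP that myosin uses. Mouse skin lies on a thin sheet of striated muscle, the panniculus carnosus, which human skin largely lacks. Satellite cells, the stem cells of muscle, switch on myogenic transcription factors when they divide and fuse into new fibres.

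Promoters of 3 members are shown because they hold the short motifs that muscle promoters are known for. They cover the 250 bases before the start of the transcript and come from RefSeq on GRCm38.p6, read 5′ to 3′ on the gene's strand. Capitals mark the motifs found: CAGCTG, an E-box of the kind bound by MyoD family factors, CACCTG, another E-box, the MEF2 site, the CArG box bound by serum response factor, and TATAAA, the TATA box letters. Acta1, skeletal muscle actin, lies on the minus strand, and its stretch is chr8:123894776-123895025. Myh4, the myosin heavy chain of the fastest fibres, lies on the plus strand, and its stretch is chr11:67237562-67237811. Pgam2, the muscle form of phosphoglycerate mutase in glycolysis, lies on the minus strand, and its stretch is chr11:5803797-5804046.
Acta1: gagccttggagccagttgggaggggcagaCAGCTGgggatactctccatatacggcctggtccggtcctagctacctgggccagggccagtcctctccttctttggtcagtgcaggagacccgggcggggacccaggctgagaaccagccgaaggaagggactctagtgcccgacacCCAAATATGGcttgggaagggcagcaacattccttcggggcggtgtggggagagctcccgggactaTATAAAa
Myh4: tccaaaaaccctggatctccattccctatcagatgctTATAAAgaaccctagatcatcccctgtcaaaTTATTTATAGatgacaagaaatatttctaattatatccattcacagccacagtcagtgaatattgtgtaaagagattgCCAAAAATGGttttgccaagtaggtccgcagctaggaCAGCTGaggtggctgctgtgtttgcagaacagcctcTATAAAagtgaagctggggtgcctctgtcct
Pgam2: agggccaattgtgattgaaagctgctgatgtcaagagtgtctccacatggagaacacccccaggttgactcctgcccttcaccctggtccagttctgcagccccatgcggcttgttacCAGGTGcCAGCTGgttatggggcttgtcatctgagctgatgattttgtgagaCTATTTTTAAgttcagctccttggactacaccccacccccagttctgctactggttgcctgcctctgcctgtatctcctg

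In the Acta1 stretch the CAGCTG motif began 221 bases, the CArG box 73 bases and the TATAAA letters 7 bases before the start. In the Myh4 stretch the MEF2 site began 182, the CArG box 104 and the CAGCTG motif 67 bases before it. Its TATAAA motifs began 213 and 31 bases before the start. In the Pgam2 stretch a CACCTG motif on the opposite strand began 132, the CAGCTG motif 125 and the MEF2 site 80 bases before it. The table held promoters of 23 of the 32 members, with 27 starts between them. CAGCTG was present in 14 of these 27 stretches, or 51.9%, against 13% of 32851 promoters of the same length. A MEF2 site was present in 18.5% of the member stretches and in 2.92% of all promoters, and a CArG box in 14.8% and 1.47%. For CACCTG the shares were 22.2% and 17.2%, and for TATAAA, searched on the gene's strand alone, 11.1% and 7.59%. The other motifs were searched on both strands, and a MEF2 site or a CArG box can contain the letters TATAAA. Stretches of the same gene can overlap, so the CArG box of Ldb3 and the CAGCTG motif of Mb were each counted more than once. By gene, CAGCTG was present in 13, a MEF2 site in 5 and a CArG box in 3 of the 23 members. A match describes the letters in this window and not a bound site. The 32 genes lie on 11 chromosomes, with 8 of them on chromosome 7 and 6 on chromosome 11, among them the neighbouring fast myosin genes Myh1, Myh2 and Myh4.

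Levels are given in CPM, counts relative to the library total, after trimmed mean of M-values (TMM) scaling. The libraries held 38062562 to 60450396 estimated counts, deep enough that the spread among replicates, with a common biological coefficient of variation of 30.9%, outweighs counting error. Hair keratin genes were abundant in 2 libraries, at 1.91% (day 5 replicate 2) and 2.67% (day 7 replicate 3) of all counts, and at or below 0.165% elsewhere. These same libraries held the lowest summed muscle level, and values without them are given where they touch a result. Day 0 replicate 1 also differed from the other day 0 libraries, with a lower level of most muscle genes. Since tissue was sequenced in bulk, fewer muscle fibres and less RNA per fibre cannot be told apart.

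The 32 genes together made up 0.441% to 1.94% of all counts, so that every library held muscle RNA despite the trimming. Their summed level was 12518, 19430 and 18099 CPM in the 3 day 0 libraries, 14955, 10632 and 10384 CPM at day 1, and 10123, 16314 and 12075 CPM at day 3. It was 10013, 7055 and 11702 CPM at day 5 and 11394, 12470 and 4669 CPM at day 7. The libraries of day 5 and of day 7 all lay below those of day 0, by a narrow margin at day 7, while those of day 1 and of day 3 overlapped them. The means were 16682 ± 3668 at day 0, 11990 ± 2571 at day 1, 12837 ± 3166 at day 3, 9590 ± 2352 at day 5 and 9511 ± 4228 at day 7 (SD, n = 3 each). The highest library of a time exceeded the lowest by 1.44 to 1.66 times at days 0 to 5 and by 2.67 times at day 7. Day 7 replicate 3 had the lowest level of all 15 libraries in 29 of the 32 genes, and day 0 replicate 2 had the highest in 13.

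**Figure D1:**
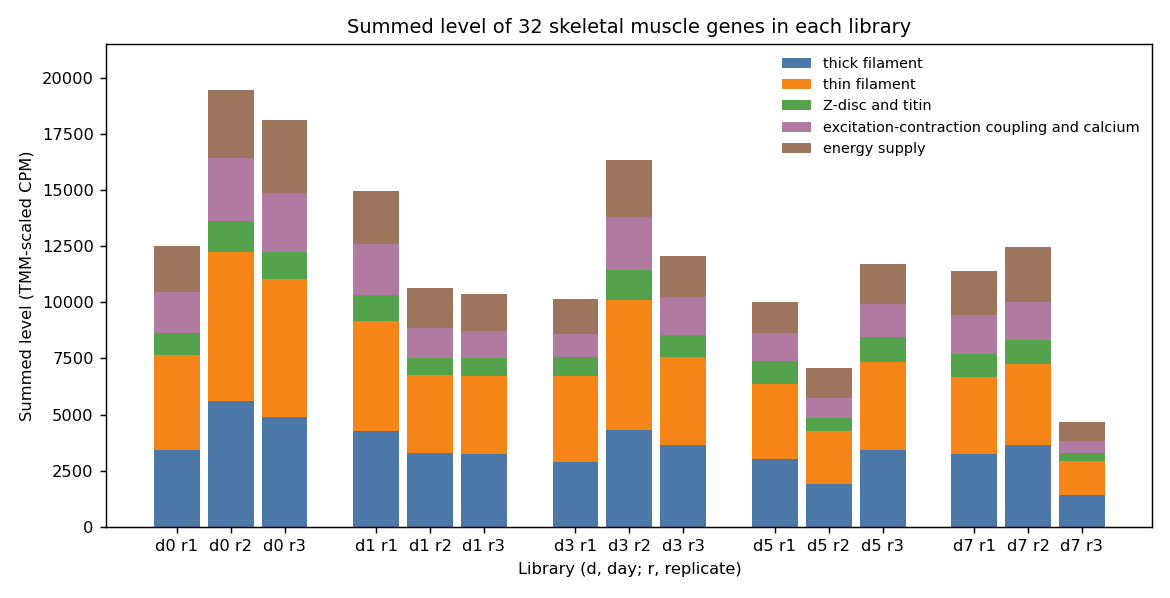
Summed TMM-scaled CPM of the 32 muscle genes in each of 15 libraries (d, day; r, replicate), stacked by the role of the gene. The day 0 bars reach 12518 to 19430 CPM, and the shortest bar, day 7 replicate 3, stops at 4669 CPM.

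Among the thick filament genes, Myl1, the alkali myosin light chain of fast fibres, had 940, 1903 and 1598 CPM at day 0, 925, 864 and 793 at day 1, 694, 1013 and 832 at day 3, 862, 585 and 769 at day 5, and 950, 1125 and 499 at day 7. All day 1 and all day 5 libraries lay below the lowest day 0 library. Myh4 had 1095, 1252 and 895 CPM at day 0, 1641, 912 and 1011 at day 1, 382, 1645 and 1066 at day 3, 795, 362 and 804 at day 5, and 961, 873 and 150 at day 7. It varied more than most: its highest library exceeded its lowest 11 times, and within day 3 alone it took both 382 and 1645 CPM. Mylpf, the regulatory light chain of fast fibres, ran from 441 to 1345 CPM over the 15 libraries. Mybpc1 and Mybpc2, the slow and fast forms of myosin-binding protein C, ran from 55.5 to 188 CPM and from 40.5 to 363 CPM.

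Of the thin filament genes, Acta1 was the most abundant member of all. It had 2095, 3635 and 3399 CPM at day 0, 2323, 1704 and 1894 at day 1, 2206, 3308 and 1862 at day 3, 1620, 1205 and 2027 at day 5, and 1670, 1598 and 745 at day 7. Every day 5 and day 7 library lay below every day 0 library. Tnnt3, the fast troponin T, which holds the troponin complex on tropomyosin, had 853, 1244 and 1152 CPM at day 0, 1072, 701 and 640 at day 1, 635, 1090 and 808 at day 3, 647, 447 and 771 at day 5, and 780, 902 and 313 at day 7. Only at day 5 did all of its libraries lie below day 0. The calcium-binding Tnnc2 averaged 354 ± 119 CPM at day 7 and 664 ± 136 CPM at day 0, and the inhibitory Tnni2 369 ± 160 and 660 ± 114 CPM (SD, n = 3 each). Neb, nebulin, a giant protein laid along the thin filament, had 63.4 to 308 CPM over the libraries.

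Z-disc and titin genes were led by Actn3, the α-actinin of fast fibres that cross-links actin at the Z-disc. It had 310, 503 and 417 CPM at day 0, 393, 241 and 322 at day 1, 208, 686 and 325 at day 3, 446, 135 and 339 at day 5, and 371, 351 and 90.3 at day 7, and each later time overlapped day 0. Tcap, telethonin, which caps titin at the Z-disc, followed another course than most members: 106, 162 and 154 CPM at day 0, 92.6, 77.1 and 77.5 at day 1, 114, 174 and 176 at day 3, 166, 140 and 216 at day 5, and 158, 173 and 64.5 at day 7. Its day 1 libraries were the low ones, below every library of day 0, day 3 and day 5. Ldb3, a Z-disc scaffold protein, had 167, 152 and 139 CPM at day 0, against at most 117 CPM in each of the 12 later libraries. Actn2, Myot, Myoz1 and Ttn, the genes of another α-actinin, myotilin, a calsarcin and titin, had medians of 89.1, 70.5, 97.4 and 128 CPM.

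For calcium handling, Atp2a1, the fast-fibre pump that returns calcium to the sarcoplasmic reticulum, had 1016, 1424 and 1419 CPM at day 0, 1331, 721 and 688 at day 1, 613, 1352 and 916 at day 3, 669, 539 and 839 at day 5, and 964, 880 and 261 at day 7. Its day 5 and day 7 libraries all lay below day 0. Pvalb, parvalbumin, a soluble calcium buffer of fast fibres, had 412, 723 and 579 CPM at day 0, 405, 298 and 198 at day 1, 124, 477 and 348 at day 3, 205, 149 and 228 at day 5, and 389, 409 and 116 at day 7. Its day 1, day 5 and day 7 libraries lay below day 0. Casq1, which stores calcium in the reticulum, averaged 103 ± 44.5 CPM at day 7 and 230 ± 51.7 CPM at day 0 (SD, n = 3 each). Ryr1, the calcium release channel, Cacna1s, the voltage sensor that opens it, and Trdn, triadin, which anchors calsequestrin to it, had medians of 111, 47 and 106 CPM.

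Energy supply was led by Ckm, the cytosolic creatine kinase of muscle, with 1082, 1658 and 1750 CPM at day 0, 1328, 1038 and 1035 at day 1, 721, 1607 and 928 at day 3, 635, 644 and 841 at day 5, and 1016, 1170 and 354 at day 7. Only the day 5 libraries all lay below day 0. Eno3, the muscle enolase of glycolysis, had 345, 510 and 490 CPM at day 0, 337, 296 and 216 at day 1, 255, 347 and 316 at day 3, 171, 203 and 293 at day 5, and 260, 368 and 103 at day 7. Mb, the oxygen-binding myoglobin, had 199, 295 and 438 CPM at day 0, 188, 106 and 129 at day 1, 257, 87.8 and 202 at day 3, 326, 196 and 239 at day 5, and 318, 506 and 242 at day 7. Its lowest libraries were thus at days 1 and 3 and its highest at day 7, unlike Ckm. Ckmt2, the mitochondrial creatine kinase, averaged 31.7 ± 9.36 CPM at day 5 and 73.9 ± 18.2 CPM at day 0 (SD, n = 3 each). Pygm, muscle glycogen phosphorylase, Pgam2 and Cox6a2, a muscle form of a cytochrome c oxidase subunit, had medians of 221, 84.5 and 35.1 CPM.

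**Figure D2:**
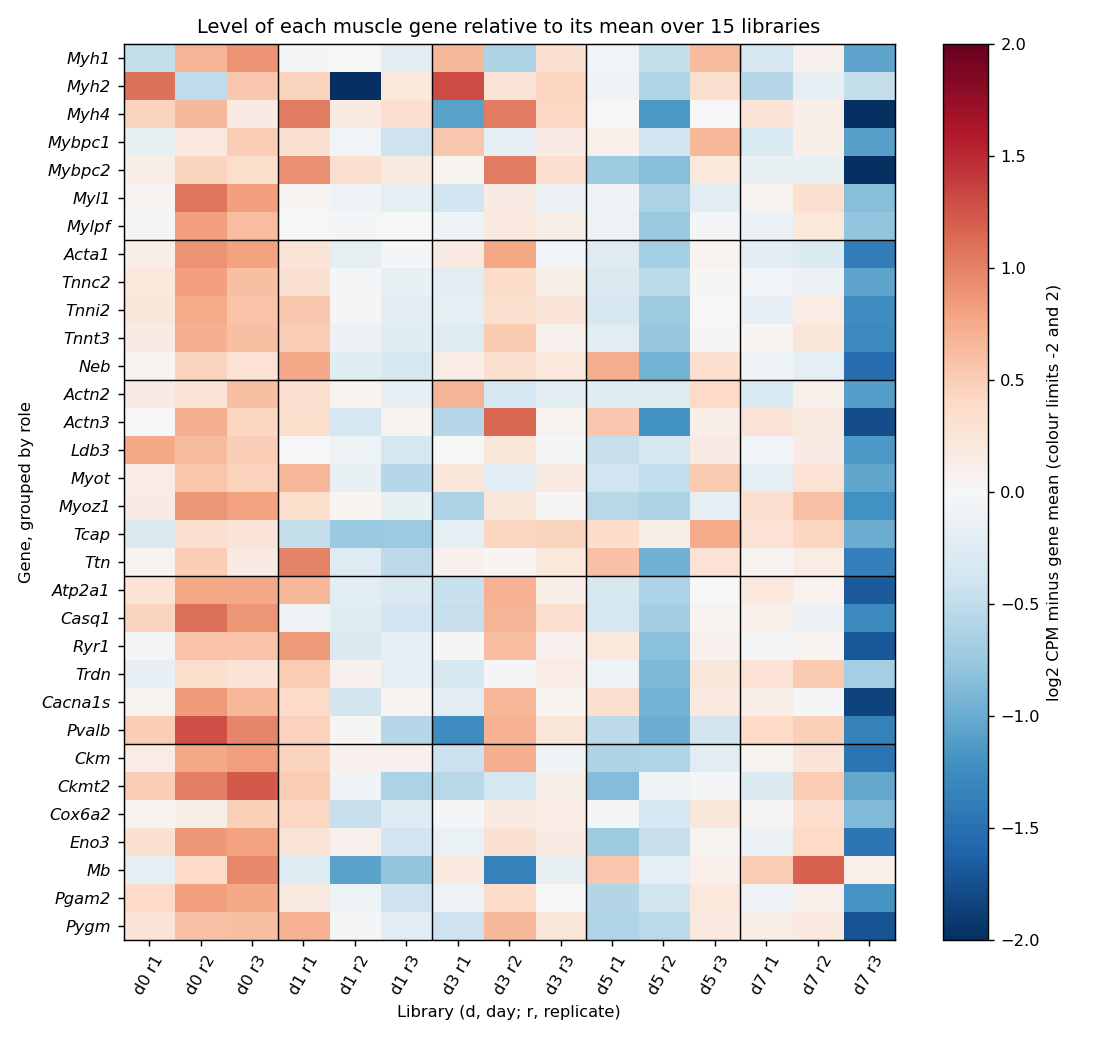
Level of each of the 32 muscle genes in each library, as log2 CPM minus the gene's mean over the 15 libraries; rows are grouped by role and vertical lines part the days. The column of day 7 replicate 3 is low in nearly every row, and it holds the lowest level of 29 genes.

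Per length the order of abundance changed, since long transcripts yield more fragments per molecule. With the length of each gene's longest protein-coding transcript in GENCODE M21, levels per kilobase put Acta1 first at 1443 CPM per kilobase, ahead of Mylpf at 1035, Myl1 at 884, Tnnt3 at 745, Tnnc2 at 670 and Tnni2 at 628. These 6 small proteins of the filaments came before Ckm at 384 and Myh4 at 153 CPM per kilobase. The lowest were Neb at 8.69, Cacna1s at 7.79, Ryr1 at 7.64, Myh2 at 5.08 and, last, Ttn at 1.20 CPM per kilobase.

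Tests of each time against day 0 were quasi-likelihood tests in edgeR, with p-values adjusted by Benjamini-Hochberg over all 17136 genes, and an adjusted p under 0.05 made a call. These comparisons share the day 0 libraries. At day 1 against day 0 no member was called, against 7.58% of all genes, and DESeq2 called 3, against 16.3%. At an unadjusted p under 0.05, 7 members were lower and none higher, against 12.9% of all genes lower. Leaving out day 0 replicate 3 gave 2 in place of 7, leaving out day 0 replicate 2, day 1 replicate 2 or day 1 replicate 3 gave 3, leaving out day 0 replicate 1 gave 11, and it was 1 when day 0 replicate 1 stood for day 0 alone. The smallest p belonged to Casq1, at a log2 fold change of -1.07 ± 0.35 (SE; adjusted p = 0.0765 in edgeR), followed by Ldb3 at -0.77 ± 0.27 (adjusted p = 0.0902 in edgeR) and Mb at -1.14 ± 0.41 (adjusted p = 0.104 in edgeR). A log2 fold change below 0 was found in 29 of 32 members, against 51% of all genes. Their median was -0.50, against -0.0093 over all genes, and it was -0.06 when day 0 replicate 1, the day 0 library with least muscle RNA, stood for day 0 alone. In 8 members every day 1 library lay below every day 0 library, or 8 of 32, against 18% of all genes: Casq1, Ldb3, Mb, Myl1, Pgam2, Tcap, Pvalb and Eno3.

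At day 3 against day 0 no member was called, against 0.788% of all genes, and DESeq2 called 1, Ckmt2, against 5.5%. At an unadjusted p under 0.05, 2 members were lower, Ckmt2 at -1.17 ± 0.39 (SE; adjusted p = 0.167 in edgeR) and Myl1 at -0.81 ± 0.30 (adjusted p = 0.209 in edgeR), against 7.18% of all genes lower. Leaving out day 0 replicate 2 gave 1 in place of 2, leaving out day 0 replicate 1 gave 5, leaving out day 3 replicate 2 gave 4, and it was 0 when day 0 replicate 1 stood for day 0 alone. The log2 fold change was below 0 in 29 of 32 members, against 51.5% of all genes, and the median was -0.34, against -0.0091, or -0.03 when day 0 replicate 1 stood for day 0 alone. Libraries of 3 members, Ckmt2, Ldb3 and Pgam2, lay wholly below day 0, against 12.4% of all genes. Thick filament members had a median of -0.07, and energy supply members one of -0.55.

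At day 5 against day 0 no member was called, against 0.502% of all genes, and DESeq2 called 6, against 6.77%. At an unadjusted p under 0.05, 14 of 32 members were lower and none higher, against 10.7% of all genes lower. That count was 10 to 16 when 1 library was left out, and 1 when day 0 replicate 1 stood for day 0 alone. Pvalb had the widest difference, at a log2 fold change of -1.56 ± 0.51 (SE; adjusted p = 0.142 in edgeR), and the smallest p was that of Myl1, at -1.0 ± 0.30 (adjusted p = 0.115 in edgeR). Casq1 stood at -1.13 ± 0.35, Ckmt2 at -1.22 ± 0.39 and Tnnc2 at -0.81 ± 0.26 (adjusted p of 0.123, 0.135 and 0.138 in edgeR). In 31 of 32 members the log2 fold change was below 0, against 48.4% of all genes, with Tcap the exception at 0.31 ± 0.31. The median was -0.74, against 0.011 over all genes. The day 5 libraries lay wholly below day 0 in 16 of 32 members, against 13.8% of all genes, and 5 of these 16 were energy supply genes and 4 thin filament genes. With day 0 replicate 1 alone as day 0 the median was -0.40. Without both libraries rich in hair keratins it was -0.53, and whether hair content had a part in it was not tested.

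At day 7 against day 0 Acta1 alone was called, or 1 of 32 members, against 7.05% of all genes, and 3.94% called lower. Acta1 fell 2.28-fold, to 1338 ± 515 CPM at day 7 against 3043 ± 829 CPM at day 0 (SD, n = 3 each), a log2 fold change of -1.19 ± 0.33 (SE; adjusted p = 0.0497 in edgeR). That call was lost without day 0 replicate 2 (adjusted p = 0.147), day 0 replicate 3 (0.133), day 7 replicate 2 (0.0750) or day 7 replicate 3 (0.147), and without both libraries rich in hair keratins (0.0935), all in edgeR. It was also lost with no filter on low counts (adjusted p = 0.0560), with the replicate block (0.0768), from the compared times alone (0.187) and when day 0 replicate 1 stood for day 0 alone (0.518), all in edgeR. Next came Tnnc2 at -0.91 ± 0.26, Casq1 at -1.16 ± 0.35, Ldb3 at -0.88 ± 0.27 and Pgam2 at -0.95 ± 0.30 (adjusted p of 0.0563, 0.0628, 0.0642 and 0.0716 in edgeR). DESeq2 called these 4, Acta1 and Ckmt2, or 6 of 32, against 16.5% of all genes.

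Among all members at day 7, 11 were lower at an unadjusted p under 0.05 and none higher, against 14.4% of all genes lower. Leaving out day 7 replicate 3 gave 5 in place of 11, leaving out day 0 replicate 2 or day 0 replicate 3 gave 6, leaving out day 7 replicate 2 gave 17, and it was 1 when day 0 replicate 1 stood for day 0 alone. A log2 fold change below 0 was found in 31 of 32 members, against 48.4% of all genes, and Mb was the exception at 0.19 ± 0.41 (SE). The median was -0.78, against 0.017 over all genes. It was -0.44 without day 7 replicate 3 and -0.41 when day 0 replicate 1 stood for day 0 alone. Libraries of 12 members lay wholly below day 0, against 15.3% of all genes, and none lay wholly above, against 13.9%.

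**Figure D3:**
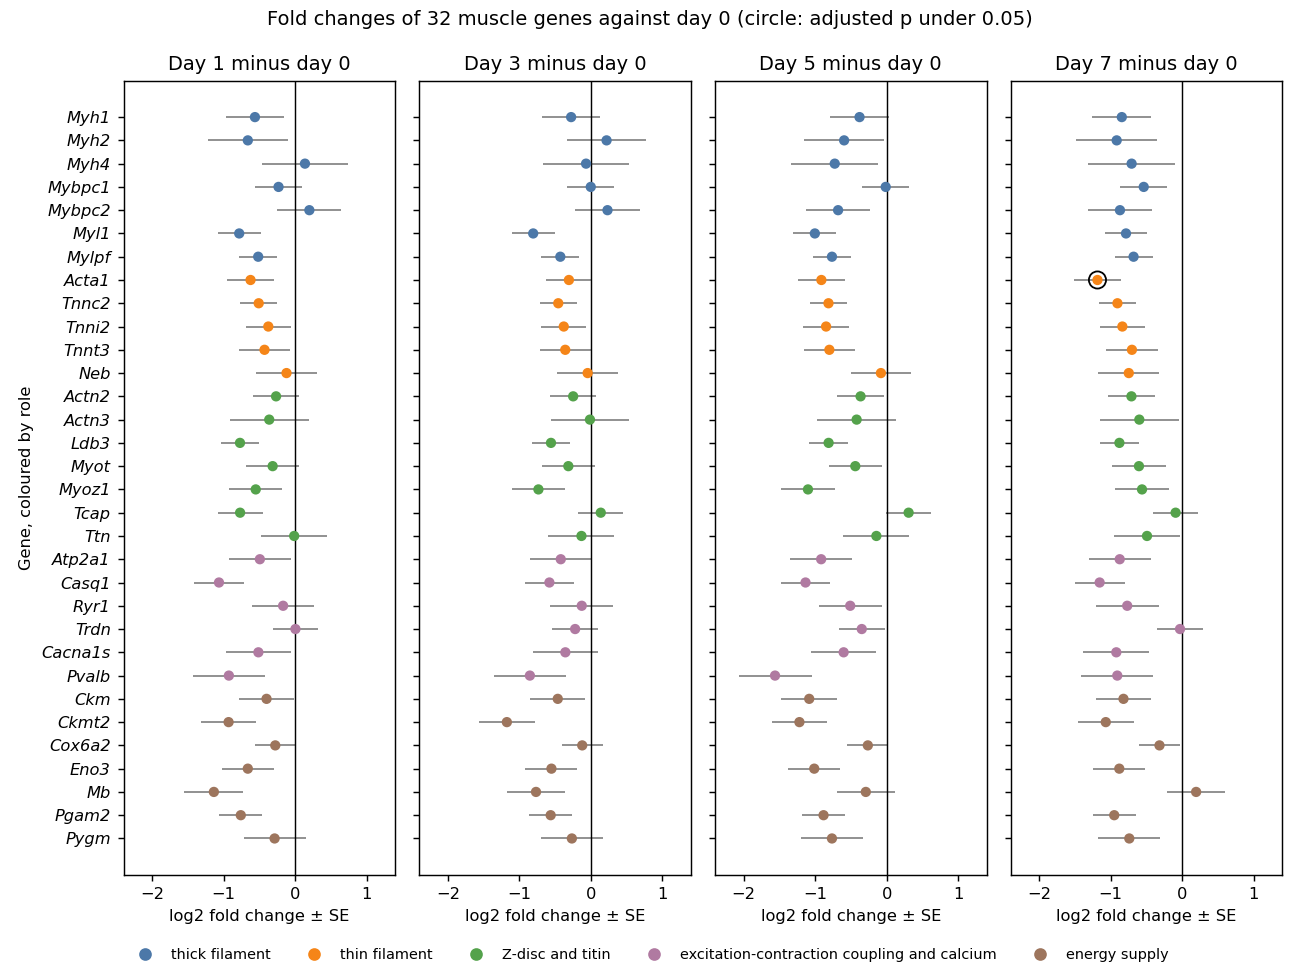
Log2 fold change (points, coloured by role; bars, SE) of the 32 muscle genes at day 1, 3, 5 and 7 against day 0, from edgeR's quasi-likelihood fit; a circle marks an adjusted p under 0.05. Points lie left of 0 in 29, 29, 31 and 31 of 32 genes, and the single circle is Acta1 at day 7.

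Between consecutive times no member was called by edgeR or DESeq2, which called 2.74%, 3.1% and 0.893% of all genes at day 3 against day 1, day 5 against day 3 and day 7 against day 5. At day 3 against day 1 (0.00584% of all genes called by edgeR), the members' median log2 fold change was 0.07 and 8 of 32 were below 0, against 51% of all genes. Tcap had the smallest p there, at 0.91 ± 0.32 (SE; adjusted p = 0.271 in edgeR), and was the only member whose day 3 libraries lay wholly above day 1, against 11.6% of all genes. At day 5 against day 3 (0.0233% of all genes called), 30 of 32 were below 0, against 49.7% of all genes, with a median of -0.35. Mybpc2 had the smallest p, at -0.91 ± 0.45 (adjusted p = 0.368 in edgeR). At day 7 against day 5 (0.00584% called), 18 of 32 were below 0, against 49.5% of all genes, with a median of -0.06. At an unadjusted p under 0.05 Tcap at day 3 against day 1 was the only member in these 3 comparisons, against 12.8%, 15.1% and 9.18% of all genes. The F test of change over all 5 times called no member with edgeR, against 13.9% of all genes, with the smallest adjusted p at 0.0800 for Casq1. At an unadjusted p under 0.05 it named 8 members, against 35.2% of all genes. DESeq2 called 9 members, against 34.2% of all genes.

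The members did not all keep the same proportion to each other, and a share of the summed muscle level is free of library scaling. These shares were not tested. Tcap made up 0.845%, 0.832% and 0.853% of the summed level at day 0, 0.619%, 0.725% and 0.746% at day 1, 1.13%, 1.06% and 1.46% at day 3, 1.66%, 1.99% and 1.84% at day 5, and 1.39%, 1.39% and 1.38% at day 7. Its day 1 shares all lay below day 0 and its later shares all above. Day 7 replicate 3, lowest in total muscle level, had the same Tcap share as the other day 7 libraries. Mb made up 1.59%, 1.52% and 2.42% at day 0, 1.26%, 0.998% and 1.25% at day 1, 2.54%, 0.538% and 1.67% at day 3, 3.26%, 2.78% and 2.04% at day 5, and 2.79%, 4.06% and 5.18% at day 7. Mb shares lay below day 0 at day 1 and above it at day 7.

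Pvalb made up 2.05%, 2.11% and 1.95% at day 5, against 3.29%, 3.72% and 3.20% at day 0. At day 7 its share was 3.41%, 3.28% and 2.48%, and these overlapped day 0. Casq1 made up 1.38 ± 0.055% at day 0, and its share was 0.928 ± 0.100% at day 1, 1.17 ± 0.222% at day 3, 1.09 ± 0.0656% at day 5 and 1.10 ± 0.138% at day 7 (SD, n = 3 each). Trdn made up 1.18 ± 0.139% at day 7 and 0.673 ± 0.0318% at day 0, without overlap. Acta1 made up 14.7%, 12.8% and 15.9% at day 7, below its 16.7%, 18.7% and 18.8% at day 0. Tnnt3 kept the steadiest of the shares described here, between 6.16% and 7.23% in all 15 libraries.

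Among the 3 fast myosin heavy chains, Myh4 took 75.1%, 63.9% and 51.6% of their summed counts at day 0, 78.3%, 67.8% and 71.7% at day 1, 34.1%, 84.1% and 65.3% at day 3, 64.5%, 52.6% and 53.7% at day 5, and 73.0%, 64.6% and 39.8% at day 7. The shares of each later time overlapped those of day 0, and the day 3 libraries alone spanned the range of all 15. Myh1, of fibre type 2X, had 306, 687 and 801 CPM at day 0, 419, 427 and 368 at day 1, 672, 280 and 530 at day 3, 411, 308 and 661 at day 5, and 338, 454 and 207 at day 7. Myh2, of fibre type 2A, was the minor fast myosin, with 57.9, 18.9 and 39.3 CPM at day 0, 36.6, 5.78 and 31.1 at day 1, 66.6, 32.2 and 36.5 at day 3, 25.6, 17.8 and 33.6 at day 5, and 18.1, 24 and 19.4 at day 7. These genes are close paralogs, and pseudoalignment can divide reads that match several of them.

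**Figure D4:**
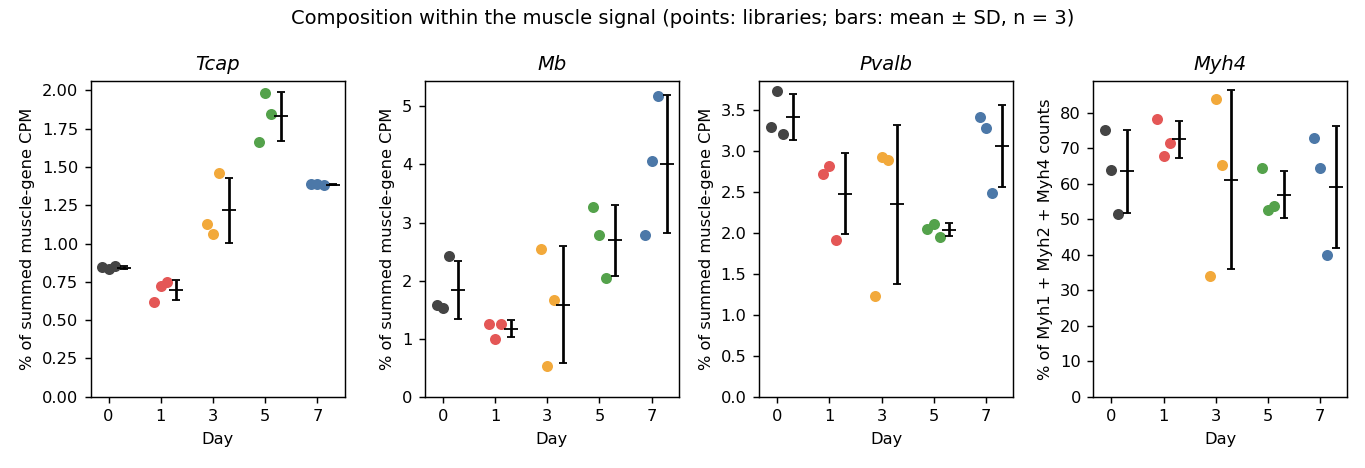
Shares of Tcap, Mb and Pvalb in the summed CPM of the 32 muscle genes, and of Myh4 in the summed counts of Myh1, Myh2 and Myh4, by day (points, libraries; bars, mean ± SD, n = 3). Tcap shares run from 0.619% at day 1 to 1.99% at day 5. Their SD within a day is smallest at day 7, at 0.00339%, and largest at day 3, at 0.213%. The Myh4 share spans 34.1% to 84.1% within day 3.

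Myh7, the myosin of slow fibres, had 0.149, 0.0253 and 0.298 CPM at day 0, 0.178, 0.101 and 0.165 at day 1, 0.320, 0.614 and 0.429 at day 3, 0.229, 0.0559 and 0.0394 at day 5, and 0.189, 0.215 and 0.116 at day 7. These levels lay near 0, with 1 to 30 counts per library. Of 12 slow-twitch and cardiac genes, 8 passed the filter on low counts, and the summed level of the list was 11.5 to 94.6 CPM, against 4669 to 19430 CPM for the 32 members. Casq2, Tnni1 and Tnnt1 made up much of it, with medians of 18.6, 8.06 and 10.1 CPM. No gene of this list was called by edgeR against day 0, and DESeq2 called 1 at day 1, against 16.3% of all genes. The smallest adjusted p was 0.0793, for Myh7b at day 1 (log2 fold change -1.63 ± 0.54, SE, edgeR).

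Myogenic and regeneration genes, 18 of 19 listed being in the files, gave no call in any comparison with day 0 in edgeR. DESeq2 called 1 at day 1, against 16.3% of all genes, and 3 at day 7, against 16.5%. Pax7, the satellite cell factor, had 0.876, 2.13 and 2.06 CPM at day 0, 1.19, 0.574 and 0.953 at day 1, 1.06, 3.34 and 1.47 at day 3, 0.737, 0.541 and 1.06 at day 5, and 0.862, 0.751 and 0.251 at day 7. Myod1, which commits cells to the muscle lineage, had 3.00, 7.79 and 10.6 CPM at day 0, 8.47, 3.89 and 5.21 at day 1, 4.02, 28.8 and 6.14 at day 3, 7.55, 1.34 and 4.39 at day 5, and 4.58, 2.87 and 2.28 at day 7. Day 3 replicate 2 stood far above the other 14 libraries, whose highest was 10.6 CPM.

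Myog, myogenin, which drives differentiation, had 5.05, 14.5 and 19.4 CPM at day 0, 16.6, 6.69 and 12.5 at day 1, 8.84, 66.3 and 18.5 at day 3, 13.9, 2.74 and 8.01 at day 5, and 9.70, 5.77 and 7.41 at day 7. Mymk, the fusion protein myomaker, had 1.06, 7.89 and 6.73 CPM at day 0, 2.98, 0.355 and 2.97 at day 1, 2.00, 19.0 and 8.14 at day 3, 7.12, 1.38 and 5.59 at day 5, and 3.05, 2.17 and 2.49 at day 7. Cdh15, M-cadherin, had 3.49, 5.84 and 6.45 CPM at day 0, 6.56, 4.97 and 8.18 at day 1, 5.96, 25.9 and 8.26 at day 3, 7.40, 2.05 and 5.43 at day 5, and 2.19, 4.0 and 2.03 at day 7. All of them peaked in day 3 replicate 2, as Pax7 and Myod1 did, and the other day 3 libraries lay much lower. At day 3 against day 0 the smallest p in the list was that of Cdh15 (log2 fold change 1.35 ± 0.56, SE; adjusted p = 0.261 in edgeR). Day 3 replicate 2 was also the day 3 library with the highest summed level of the 32 members.

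Myh3, the embryonic myosin heavy chain, which regenerating fibres express, had 2.52, 23.9 and 19.5 CPM at day 0, 14.3, 0.405 and 6.98 at day 1, 4.98, 31.0 and 34.0 at day 3, 25.2, 2.91 and 16.8 at day 5, and 4.65, 3.49 and 6.07 at day 7. It was thus already high in 2 of the 3 day 0 libraries, and the days overlapped. Myh8, the perinatal myosin, had 5.28, 27.7 and 22.7 CPM at day 0, 18.4, 4.12 and 19.4 at day 1, 14.6, 10.1 and 17.7 at day 3, 80.9, 12.3 and 34.5 at day 5, and 27.8, 26.6 and 24.4 at day 7. Myf6, a regulator of mature fibres, ran from 4.61 to 40.3 CPM and Myf5 from 0.336 to 2.03 CPM. Actc1, cardiac actin, which immature skeletal fibres also use, averaged 9.79 ± 4.96 CPM at day 1 and 37.4 ± 21.9 CPM at day 0 (SD, n = 3 each; log2 fold change -1.93 ± 0.71, SE; adjusted p = 0.106 in edgeR).

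Genes of the acetylcholine receptor and the neuromuscular junction gave 1 call against day 0 with edgeR, at day 1, against 7.58% of all genes called there. DESeq2 gave 1 of 9 at day 1, against 16.3% of all genes, 1 at day 5, against 6.77%, and 1 at day 7, against 16.5%. Colq, the collagen tail of acetylcholinesterase, fell to 1.85, 1.67 and 1.30 CPM at day 1, where the day 0 libraries had 2.65, 6.86 and 6.11 CPM (log2 fold change -1.69 ± 0.44, SE; adjusted p = 0.0371 in edgeR). Without any 1 of the 6 compared libraries it passed only in the absence of day 0 replicate 1, at adjusted p from 0.00984 to 0.160 in edgeR, and it was lost with the replicate block (0.0587) and when day 0 replicate 1 stood for day 0 alone (0.827). Chrna1, the receptor's α subunit, had 5.56, 15.1 and 15 CPM at day 0, 13.6, 12.5 and 16.2 at day 1, 11.9, 44.6 and 17.9 at day 3, 20, 4.89 and 15.2 at day 5, and 7.99, 4.99 and 5.09 at day 7. Chrng, the fetal γ subunit that returns when fibres lose their nerve, had 0.429, 3.54 and 2.90 CPM at day 0, 1.48, 0.152 and 2.29 at day 1, 1.51, 10.4 and 4.86 at day 3, 7.82, 0.802 and 5.71 at day 5, and 1.64, 0.429 and 1.24 at day 7. Both were highest in day 3 replicate 2, the library in which the myogenic factors peaked.

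**Figure D5:**
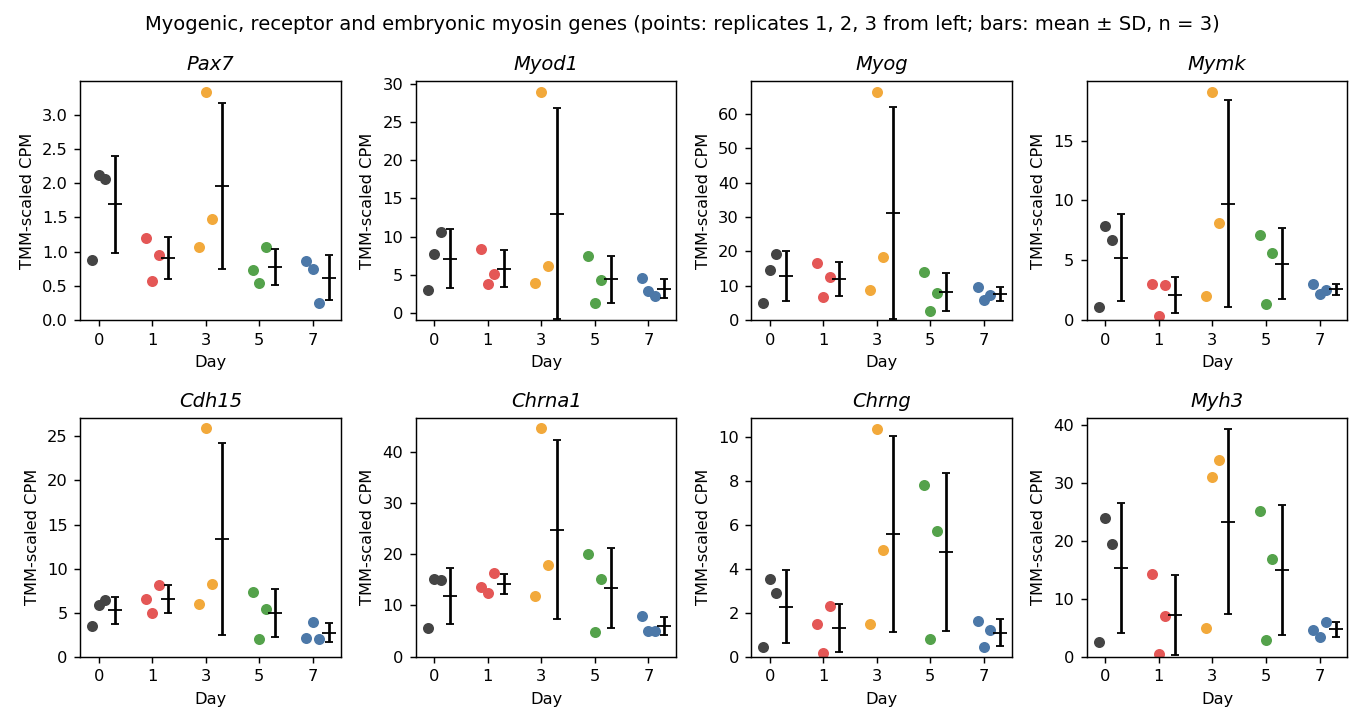
TMM-scaled CPM of 8 myogenic, receptor and embryonic myosin genes by day (points, replicates 1 to 3 from the left; bars, mean ± SD, n = 3; the axis of Myod1 extends below 0 to hold its SD bar). Except for Myh3, each gene is highest in day 3 replicate 2, for example Myog at 66.3 CPM.

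A further 40 adult skeletal muscle genes, none of them a member, were listed for comparison. None was called at day 1, 3 or 5, and 3 were called lower at day 7, or 3 of 40, against 7.05% of all genes called there. DESeq2 called 4 of 40 at day 1, against 16.3% of all genes, 5 at day 5, against 6.77%, and 13 at day 7, against 16.5%. Xirp1, an actin-binding protein of fibre repair and attachment, fell to 8.98, 6.28 and 5.65 CPM at day 7, where the day 0 libraries had 38.6, 21.0 and 17.2 CPM (log2 fold change -1.88 ± 0.49, SE; adjusted p = 0.0415 in edgeR). Cav3, muscle caveolin, and Trim72, a protein of membrane repair, had log2 fold changes of -0.81 ± 0.20 and -0.85 ± 0.23 (adjusted p of 0.0315 and 0.0424 in edgeR). These 3 calls depend on single libraries: none of the 40 genes was called without day 0 replicate 2, day 0 replicate 3 or day 7 replicate 3, 1 without day 0 replicate 1 or day 7 replicate 2, and 5 without day 7 replicate 1. None was called from the compared times alone or when day 0 replicate 1 stood for day 0 alone, and 1 with the replicate block. The medians of the 40 genes were -0.35, -0.32, -0.68 and -0.81 at day 1, 3, 5 and 7 against day 0. Trim63, a ubiquitin ligase of muscle atrophy, stood at 108 CPM in day 1 replicate 1, against 9.30 to 52.4 CPM in the other 14 libraries.

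Genes that do the same work outside muscle were set beside the members. Of 18 such counterparts, 6 rose and 1 fell at day 1 against day 0, where 7.58% of all genes were called: non-muscle myosin Myh9, α-actinin Actn1, actin Actg1, the widely expressed calcium pump Atp2a2, enolase Eno1 and mutase Pgam1 rose, and the brain-type creatine kinase Ckb fell. Actn1 rose by a log2 fold change of 0.83 ± 0.18 and Myh9 by 0.54 ± 0.11 (SE; adjusted p of 0.0217 and 0.0176 in edgeR), and Ckb fell by 0.94 ± 0.19 on the log2 scale (adjusted p = 0.0182 in edgeR). The list gave no call at day 1 without day 0 replicate 2, day 0 replicate 3 or day 1 replicate 1, nor when day 0 replicate 1 stood for day 0 alone, and leaving out day 1 replicate 3 gave 2, day 1 replicate 2 gave 3 and day 0 replicate 1 gave 8. At day 3 Actn1, Eno1 and Myh9 were called higher, where 0.788% of all genes were called. At day 5 none was called, against 0.502% of all genes, and at day 7 Pygl alone was called, lower, against 7.05%. Without any 1 of the compared libraries the day 3 calls passed only in the absence of day 0 replicate 1, and that of Pygl only in the absence of day 0 replicate 1 or day 7 replicate 1. Eno1 has a near-identical copy and its value is uncertain. The medians of the list were 0.32, 0.26, 0.15 and 0.15 at day 1, 3, 5 and 7.

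Fat, which was removed together with muscle, was followed by 16 adipocyte markers. None was called by edgeR at any time against day 0, while DESeq2 called 7 of 16 at day 7, against 16.5% of all genes. Adipoq, adiponectin, had 162, 138 and 126 CPM at day 0, 86.5, 89.4 and 208 at day 1, 94.1, 175 and 114 at day 3, 101, 71.8 and 114 at day 5, and 94.2, 119 and 47.9 at day 7. The summed adipocyte level was 1987 to 2722 CPM at day 7 and 2769 to 3780 CPM at day 0. At day 7 the log2 fold change was below 0 in 15 of 16 adipocyte markers, with a median of -0.71, beside -0.78 for the muscle genes, and no defining marker was at 0. How much of either came from the trimming was not tested. Myh11, the smooth muscle myosin, had 120, 72.1 and 59.1 CPM at day 0, 86.4, 81.9 and 67.3 at day 1, 94.2, 75.0 and 124 at day 3, 80.9, 45.2 and 115 at day 5, and 73.3, 70.4 and 23.6 at day 7. None of 12 smooth muscle genes was called against day 0 by edgeR, and DESeq2 called 1 at day 7, against 16.5% of all genes.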

How the data were processed

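Polyadenylated RNA libraries from mouse skin were sequenced by the authors, who deposited 1 file of estimated counts per gene symbol for each of 15 libraries, produced by kallisto 0.43 (per the submitters' processing notes). Neither the index nor the build, the annotation, the use of strand or the way transcripts were joined into genes is given in the sources used here. The estimated counts were whole as deposited. Each file held 30307 rows, of which 26 carried dates in place of symbols (0.155% to 0.179% of the counts) and were left out. Near-identical genes can share reads.

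From these counts, edgeR 4.0.16, with limma 3.58.1 and R 4.3.3, kept 17136 genes (edgeR's expression filter, minimum count 10), scaled libraries by TMM and fitted 1 robust quasi-likelihood model over all 15 libraries, with two-sided contrasts between times and an F test over all of them. P-values were adjusted by Benjamini-Hochberg over all genes and called under 0.05. DESeq2 1.42.0 was an alternative, as were other scalings, no filter, the compared times alone, a replicate block and leaving out each library. The fit was also run on simulated data with a smaller spread than that of these libraries, which does not show how it performs on them. SEs were derived from each contrast's F statistic, and CPM is TMM-scaled. Shares and lists are described by counts and medians alone.

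The members and lists were chosen with earlier results of these data known. Values of every library are given for the 2 most abundant members of each role, called members, fast myosins, Myh7, Adipoq, Myh11 and genes of the myogenic and receptor lists that reach 1 CPM in any library. Of that last group the less telling ones are given by their range or not printed. Other genes were named by their calls or smallest p, and Ldb3, Tcap, Mb and the genes whose shares are described were picked after their values were seen, as were Trim63 and Actc1. Replicate numbers carry no stated meaning. Deviations from the group means of libraries sharing number 1 correlated at -0.086 to 0.421. The range was -0.588 to 0.263 for number 2 and -0.729 to 0.486 for number 3. Libraries with different numbers were not compared in this way, so these ranges cannot decide whether the numbers pair the libraries. Promoters are from the RefSeq table for GRCm38.p6, and transcript lengths from GENCODE M21.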

Additional observations from a re-analysis of the deposited data

How the results depend on the processing

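Under other scalings and with no filter, the mean summed CPM of the 32 genes at each time moved by less than the SD between replicates. Leaving out 1 of 3 libraries cannot move a mean that far, so those runs could not decide it. The fast myosin shares were recomputed only per transcript length. The lengths of Myh1, Myh2 and Myh4 are near equal, at 6081, 6083 and 6016 bases, so these shares could hardly move. Of 460 log2 fold changes of named members against day 0 under an alternative, 415 kept their direction and their side of the threshold, 22 passed it newly, 9 no longer passed it and 14 changed sign. Acta1 at day 7 was the only one of these values called at first, so all 9 losses are losses of its call. A kept side thus mostly means a value that was called in neither fit. The values cover the members with the smallest p at each time together with Ckm, Myh4, Tcap and Mb. At day 1 the count of members called was 0, 3 with DESeq2, 4 from the libraries of the compared times alone, and 0 to 1 when 1 library was left out. At day 3 it was 0, and 1 with DESeq2. At day 5 it was 0, 6 with DESeq2, and 0 to 1 when 1 library was left out. At day 7 it was 1, 6 with DESeq2, and 0 to 3 when 1 library was left out. It was 0 at day 7 with no filter on low counts, with the replicate block, from the compared times alone, without both libraries rich in hair keratins and when day 0 replicate 1 stood for day 0 alone. The last 2 alternatives were chosen after seeing the data. For change over all times the count was 0, 9 with DESeq2, 2 without the libraries rich in hair keratins, and 0 to 5 when 1 library was left out, the 5 without day 7 replicate 3 and 1 without day 0 replicate 1.

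The adjusted p of Acta1 at day 7 in edgeR was 0.0560 with no filter, 0.0768 with the replicate block, 0.187 from the compared times alone and 0.518 when day 0 replicate 1 stood for day 0 alone. The block left 862, 78, 27 and 822 genes called at day 1, 3, 5 and 7, against 1299, 135, 86 and 1208 without it. DESeq2 called 2786, 943, 1160 and 2822, and 5853 against 2380 for change over all times. Between consecutive times it called 470, 532 and 153 genes, against 1, 4 and 1 with edgeR. Leaving out 1 library gave 33 to 2411 genes for day 1, 0 to 629 for day 3, 0 to 495 for day 5 and 279 to 2074 for day 7, and 1174 to 2973 for change over all times. Without the libraries rich in hair keratins 306 genes were called for day 5, 786 for day 7 and 3828 for change over all times. From the compared times alone 1552, 202, 0 and 65 genes were called, and with no filter 71 for day 3. When day 0 replicate 1 stood for day 0 alone the medians of the 32 genes were -0.06, -0.03, -0.40 and -0.41.

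Genes called in all the other lists together numbered 18, 5, 5 and 6 at day 1, 3, 5 and 7, 31, 23, 25 and 41 with DESeq2, 13, 3, 0 and 2 with the replicate block, and 0 to 21, 0 to 16, 0 to 17 and 1 to 21 when 1 library was left out.

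Signs changed only for values that were not called. When 1 library was left out, Myh4 ran from -0.18 to 0.30 at day 1 and from -0.58 to 0.33 at day 3, reaching 0.051 without day 0 replicate 2. Tcap ran from -0.029 to 0.32 at day 3 and from -0.34 to 0.24 at day 7, where it stood at 0.018 without day 0 replicate 2 and 0.24 without day 7 replicate 3. Mb ran from -0.53 to 0.047 at day 5 and from -0.15 to 0.54 at day 7, with -0.046 without day 0 replicate 1. With only day 0 replicate 1 for day 0, Ckm stood at 0.080 at day 1 and 0.016 at day 3, Mb at 0.37 at day 5 and Tcap at 0.33 at day 7. Without the libraries rich in hair keratins Tcap stood at 0.24 at day 7. The cause was not tested. The depth of at least 38062562 counts leaves the members' precision set by 3 libraries per time, while genes under 1 CPM rest on few counts.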
